A study of Mus musculus with 44 samples.

Results

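Tight clusters of CTCF sites were defined by the positions of the CTCF peaks called in *Setdb1* KO embryonic stem cells (ESCs). Summits of autosomal peaks were joined into a chain where neighbours lay at most 3 kb apart, and chains of at least 4 summits were taken as clusters. The 3 chains over the clustered protocadherin genes of chromosome 18, with 14 peaks, were left out. This selected 310 clusters with 1353 peaks, which is 2.33% of the 58087 autosomal peaks of the *Setdb1* KO list. The clusters were chosen on peaks of the *Setdb1* KO library, so a site bound in WT ESCs alone could not be a member. Counts of sites without a WT peak, and ratios between the libraries, are therefore given as descriptions with no test.

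CTCF was measured by ChIP-seq with 1 antibody in *Setdb1* KO ESCs and in WT ESCs, and 1 peak list of each was analysed. Both were mouse TT2 (C57BL/6/CBA F1) ESCs, and the study's methods give WT as the clone 33#6. *Setdb1* was deleted with 800 nM 4-hydroxytamoxifen (4-OHT) given over 4 days, and cells were harvested on day 6. The sources used here do not say whether WT cells received 4-OHT, so a response to the drug cannot be told apart from loss of *Setdb1*. No transcript was read here, so deletion of *Setdb1* and the identity of the cells were not checked. The lists held 59698 peaks for *Setdb1* KO and 44241 for WT, from about 27.6 M and 27.4 M tags. The height of a peak is given as its pileup, the number of sequenced fragments over its highest point, with a median of 40 in *Setdb1* KO and 37.0 in WT. A *Setdb1* KO peak is called shared where a WT peak covered at least 1 of its bases, and KO-only otherwise. Intervals are 95% intervals and cover counting error only, since there was 1 library per condition and no spread between replicates could be measured.

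CTCF is a zinc finger protein that binds a long, directional DNA motif. Cohesin extrudes loops of chromatin and tends to stop at CTCF when the motif points into the loop, which makes the order and strand of neighbouring sites a feature of interest. SETDB1 is a histone methyltransferase that places H3K9me3, a repressive mark found on many transposable elements in ESCs. Copies of some rodent SINE elements carry a sequence that resembles the CTCF motif, so repeat-derived and unique CTCF sites can lie side by side.

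The bases under the summits show what the sites of a cluster share. The motif was searched within 50 bp of each summit with a CTCF matrix derived from strong shared peaks outside the clusters, and 848 of 1353 sites held one. At many sites the motif was embedded in a stretch that recurred with little change. To show this, the motifs of the cluster of 4 sites 6.16 kb from *Maneal* (chr4:124868330-124872899, first to last summit) are given from the mm10 genome, each on the G-rich strand of the motif, with the 16 bp scored by the matrix in capitals. The mean identity between these 3 motifs was 95.8%, the highest of the clusters with at least 3 motifs.
*Maneal* site 1: cctgcatGCCAGAAGAGGGCACCagaactc
*Maneal* site 2: agcagaaGCCAGAAGAGGGCATCagatcct
*Maneal* site 4: tatagagGCCAGAAGAGGGCATCtgattcc

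The cluster in *Pole2*, which encodes a subunit of DNA polymerase epsilon, held 4 sites (chr12:69208699-69213763). Its 3 motifs lay on the same strand and had a mean identity of 91.7%. The motifs of sites 1 and 2 had the same 16 bases, and the flank to their right shared the letters agatc.
*Pole2* site 1: cctgtgtGCCAGAAGAGGGCATCagatcac
*Pole2* site 2: cgttcagGCCAGAAGAGGGCATCagatctg
*Pole2* site 3: caaacgcACCAGAAGAGGGCGTCagatctc

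Other clusters held motifs that differed from site to site. The 4 sites in *Piwil1*, a gene of the piRNA pathway in the testis, lay in unmasked sequence (chr5:128729444-128734152). Their mean motif identity was 59.4%, against a median of 67.7% over clusters with at least 3 motifs.
*Piwil1* site 1: cacggaaGTCAGAAGAGGGCACCagatccc
*Piwil1* site 2: ctggaccGCCACCAGGTGTCCCCctagagc
*Piwil1* site 3: aggggtcCCCAGTAGGTGGTGCTgtttagg
*Piwil1* site 4: caacggcACCACTAGATGGTGCCgtaacgc

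The most frequent 12-letter word among the aligned motifs of the clusters was CCAGAAGAGGGC. It is found in the *Maneal* and *Pole2* motifs above, where it starts at the second base in capitals. The word was chosen for its frequency in these same motifs, after they had been read. That choice favours a higher share in the clusters than in the whole list, which includes them. The word lay within 50 bp of the summit, on either strand, at 249 of 1353 sites (18.4%, Wilson interval 16.4 to 20.6%). In the whole list it lay at 8621 of the 58087 autosomal peaks (14.8%). The interval treats sites as independent, which copies within a cluster are not, so no enrichment is read from it. Of the 249 sites, 228 lay in repeat-masked sequence (91.6%). The sites were spread over 172 of the 310 clusters, and 64 clusters held at least 2 of them. The 13 clusters that held 3 included those at *Maneal*, *Pole2*, *Nxn*, *Kif13a*, *Evi5*, *Mtus2*, *Pafah2* and *Cnot10*.

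Clusters were short. Of the 310, 230 had 4 summits, 57 had 5, 14 had 6, 8 had 7 and 1 had 8. The distance from first to last summit had a median of 5005 bp and a range of 1728 to 14207 bp. Neighbouring summits were 1487 bp apart at the median of 1043 gaps, with quartiles of 953 and 2118 bp, and the closest were 270 bp apart. The pileup was spread over the sites of a cluster: the highest site held 39.4% of the summed pileup at the median, with quartiles of 34.8 and 45.7%. At the limit of the rule, the clusters at *Card10*, 3.01 kb from *Numbl* and in *Prtg* had largest gaps of 2998, 2996 and 2990 bp. The chains of 3 nearest to *Ssc5d*, *Gm11077* and *Kcna5* missed a further summit at 3008, 3017 and 3034 bp. Pileups ran between 14 and 72 in those clusters and between 23 and 136 in those chains.

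The clusters were spread unevenly over the autosomes. Clustered peaks made up 4.40% of the peaks of chromosome 7 (41 clusters, Wilson interval 3.81 to 5.08%) and 3.95% of those of chromosome 5 (41 clusters, 3.42 to 4.56%). At the other end were chromosome 14 with 1 cluster (0.182%) and chromosome 16 with 2 (0.416%). Peaks enter a cluster in blocks of at least 4, so these intervals, which treat peaks as independent, are too narrow. A chromosome with more closely spaced peaks yields more chains, and the part of peak density in this order was not tested.

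**Figure D1:**
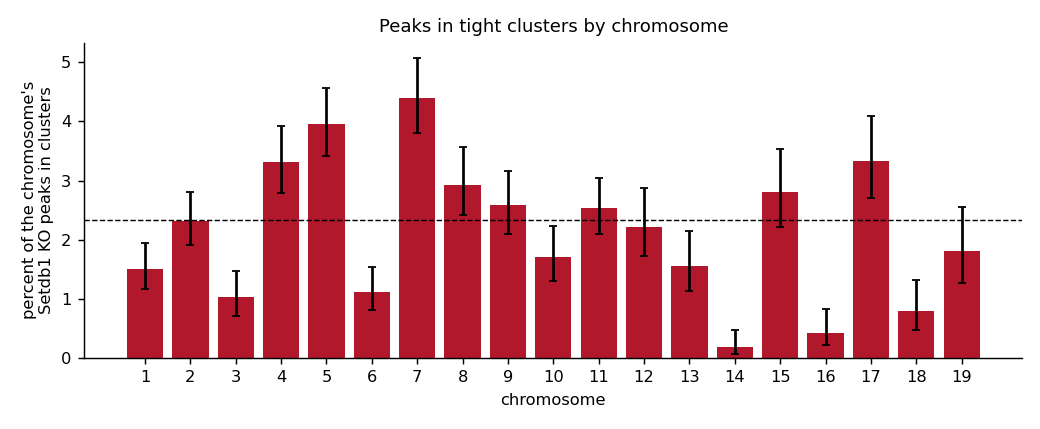
Percent of each autosome's *Setdb1* KO CTCF peaks that lay in tight clusters (y axis), by chromosome (x axis). Bars are percentages, error bars Wilson 95% intervals and the dashed line the value over all autosomes, 2.33%. Chromosome 7 is highest at 4.40% and chromosome 14 lowest at 0.182%.

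In relation to genes, 186 clusters overlapped a protein-coding gene. The other 124 lay at a median of 6.22 kb from the nearest, and at most 587 kb away. Of the 1353 sites, 187 (13.8%) lay within 1 kb of a transcription start, 92 (6.80%) in other exons, 508 (37.5%) in introns and 566 (41.8%) between genes. The share near a transcription start was 16% in chains of 3, 14.2% in chains of 2 and 10.7% at single summits. All sites lay in introns in 72 clusters and between genes in 97, and 106 clusters had at least 1 promoter site. The 201 bp around a clustered summit held a mean of 3.86 CpG, against 3.88 in chains of 3, 3.65 in chains of 2 and 3.05 at single summits, so that chains of each length stood above single summits.

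Peaks of the clusters were about as often KO-only as other peaks. Of the 1353 sites, 373 (27.6%, Wilson interval 25.3 to 30%) had no overlapping WT peak, against 28.5% of all autosomal peaks. The share was 27% in chains of 3, 27.9% in chains of 2 and 28.8% at single summits. These 3 values lie inside the interval of the clusters. Sites at the ends of clusters were KO-only in 26.0% and inner sites in 28.9%, with overlapping intervals. By place, the KO-only share ran between 26.2% at promoters and 28.3% between genes.

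**Figure D2:**
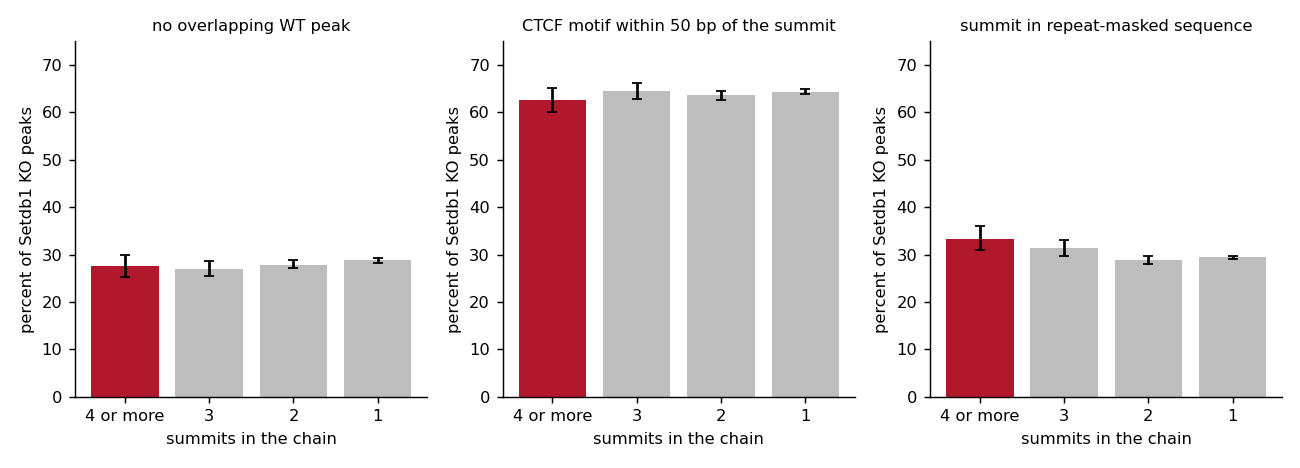
Percent of *Setdb1* KO CTCF peaks (y axis) without an overlapping WT peak, with a CTCF motif within 50 bp of the summit and with a repeat-masked summit, by the number of summits in the chain (x axis). Clusters are in red, error bars are Wilson 95% intervals. KO-only shares lie between 27 and 28.8% and motif shares between 62.7 and 64.5% over the 4 classes, and the masked share is 33.4% in clusters against 29.4% at single summits.

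KO-only sites were low. Their pileup had a median of 16.0 and a range of 9 to 72, against a median of 68.0 and a range of 9 to 168 at the 980 shared sites. The upper quartile of the KO-only sites (21.0) lay under the lower quartile of the shared sites (41.0). All autosomal peaks were ranked by pileup and cut into 3 classes of equal size. The lowest class held 435 sites of clusters, of which 334 were KO-only (76.8%), the middle class 358, of which 38 were (10.6%), and the highest 560, of which 1 was (0.179%). Over all autosomal peaks, these classes had KO-only shares of 71.7, 13.3 and 0.454%. The motif was also less frequent at KO-only sites, at 119 of 373 (31.9%, Wilson interval 27.4 to 36.8%). It was found at 729 of the 980 shared sites (74.4%). KO-only peaks of the whole list held a motif more often than those of the clusters (43.0%, interval 42.2 to 43.7%). The motif share also rose with pileup. From the lowest class to the highest it was 27.6, 62.8 and 89.8% at sites of clusters. Over all autosomal peaks it was 37.5, 66.7 and 88.3%. Motif shares of KO-only and shared sites were not compared within a class, so no trait particular to KO-only sites is read from them.

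The KO-only sites were spread over most clusters. There were none in 79 clusters, 1 in 126, 2 in 78, 3 in 18, 4 in 8 and 5 in 1. With shared peaks alone, 107 of the 310 clusters still had 4 summits within the allowed gaps. The WT list, chained by the same rule, gave 145 clusters with 623 peaks. Of the clusters, 104 overlapped a WT cluster, which is 33.5% of the *Setdb1* KO clusters and 71.7% of the WT clusters. WT peaks without a *Setdb1* KO partner lay inside 9 clusters, 1 in each, with WT pileups of 10 to 16. In all, 974 WT peaks overlapped the 980 shared sites.

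The largest cluster had 8 summits over *Prss57*, a serine protease gene of neutrophils, and *Palm*, which encodes a lipid-anchored membrane protein (chr10:79788617-79796692). In order, the *Setdb1* KO pileups were 93, 9, 11, 22, 24, 79, 15 and 13. Sites 3, 4, 7 and 8 were KO-only. A single WT peak of 73 fragments lay across sites 1 and 2, and sites 5 and 6 had 24 and 79 fragments in *Setdb1* KO against 15 and 63 in WT. Most of the signal thus came from sites 1 and 6, which were shared and lay at promoters. Site 1 held a masked motif, while site 6 held an unmasked one with other letters.
*Palm* site 1: tggaggaACCAGAAGGTGGCATCagatccc
*Palm* site 6: gtctgcgGCCAGCAGGAGGCGCGcgcgggc

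Of the 8 clusters with 7 summits, the shortest lay 0.761 kb from *Cnot10*, a subunit gene of the CCR4-NOT deadenylase (chr9:114578419-114585117). It held 6 motifs, of which the first 4 were on the minus strand and the last 2 on the plus strand. Sites 1, 4, 6 and 7 had 33, 81, 133 and 56 fragments in *Setdb1* KO against 22, 57, 107 and 34 in WT, and a single WT peak of 90 fragments spanned sites 2 and 3. Only site 5, with 13 fragments, was KO-only. The cluster at *Arhgdia* had 3 KO-only sites of 14, 21 and 15 fragments at its end (chr11:120577581-120584711). Its sites 1, 2 and 4 had 45, 105 and 45 fragments in *Setdb1* KO against 23, 82 and 52 in WT, and the interval of the ratio held 1 at sites 2 and 4. Site 3, with 36 fragments, overlapped 2 WT peaks of 12 and 37.

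The cluster at *2210011C24Rik* (chr8:84008584-84015983) had KO-only sites of 19 and 17 fragments among shared sites of up to 150. Its last site had 65 fragments in *Setdb1* KO against 28 in WT, a ratio of 2.32 (exact Clopper-Pearson interval 1.47 to 3.76), while its highest site had 150 against 124. The cluster beside *Bptf*, a subunit gene of the NURF chromatin remodeller, began at the promoter with 115 fragments in *Setdb1* KO against 99 in WT (chr11:107132263-107140499). The next 4 sites, of 14, 28, 20 and 19 fragments, were KO-only and masked. Sites 6 and 7, also masked, had 86 and 41 fragments in *Setdb1* KO against 55 and 28 in WT. Sites 3, 4, 6 and 7 aligned with each other in 5 of their pairs, with identities of 72.7 to 87.1%.

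The cluster beside *Pafah2*, which encodes an acetylhydrolase of platelet-activating factor, had 4 KO-only sites of 23, 14, 12 and 15 fragments (chr4:134387430-134396150). Its 3 shared sites had 86, 22 and 77 fragments in *Setdb1* KO against 56, 15 and 55 in WT. The cluster at *Zfp74*, a zinc finger gene, had the most KO-only sites, 5 of 7 (chr7:29953199-29962967). The KO-only sites had 15, 16, 42, 11 and 11 fragments, and the 2 shared sites had 78 and 78 fragments in *Setdb1* KO against 77 and 53 in WT. The 4 motifs of *Zfp74* had a mean identity of 84.4%, and the stretches of 301 bp around sites 1, 6 and 7 aligned with each other at 90.7 to 92.5% identity. The motifs of the shared site 5 and of the KO-only sites 4 and 6 are given to compare their letters. Sites 4 and 5 were not among the sites that aligned.
*Zfp74* site 5, shared: tgtggagGCCAGAAGGGGGCGTCagaaatc
*Zfp74* site 4, KO-only: cacacagGCCAGAAGAGGGAGTCaggtcct
*Zfp74* site 6, KO-only: cagacaaACCAGAAGAGGGCATCatatccc

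The remaining clusters among the 12 with the most summits were at *Mtus2*, *Mmp9*, *Kif26a*, *Cacna1a* and *Suds3*. *Mtus2*, which encodes a microtubule-associated protein, is described with the highest ratios below. *Mmp9*, a matrix metalloproteinase gene, and *Slc12a5*, the neuronal potassium-chloride cotransporter gene, shared the longest cluster, of 14.2 kb (chr2:164947784-164961991). Its sites 3 to 7 had 135, 84, 87, 20 and 92 fragments in *Setdb1* KO against 89, 36, 50, 16 and 60 in WT. All 5 were higher in *Setdb1* KO, as were most shared sites of the whole list. Site 2, with 118 fragments, overlapped 3 WT peaks of 31, 65 and 81, and site 1 was KO-only with 11.

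*Kif26a*, a kinesin family gene, had 1 KO-only site of 14 fragments among 6 (chr12:112140451-112146479). The others had 62, 37, 43, 87 and 98 fragments in *Setdb1* KO against 45, 24, 27, 60 and 74 in WT, and none of the 6 lay in masked sequence. *Cacna1a*, a calcium channel gene, had KO-only sites of 19, 14 and 15 fragments and shared sites of 106, 147 and 75 fragments in *Setdb1* KO against 97, 116 and 48 in WT (chr8:84590449-84596611). *Suds3*, a gene of the SIN3 corepressor complex, had a KO-only site of 12 fragments (chr5:117109719-117116238). Its shared sites had 41, 74, 69, 64 and 76 fragments in *Setdb1* KO against 23, 49, 52, 52 and 83 in WT, and the interval of the ratio held 1 at the last 3.

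**Figure D3:**
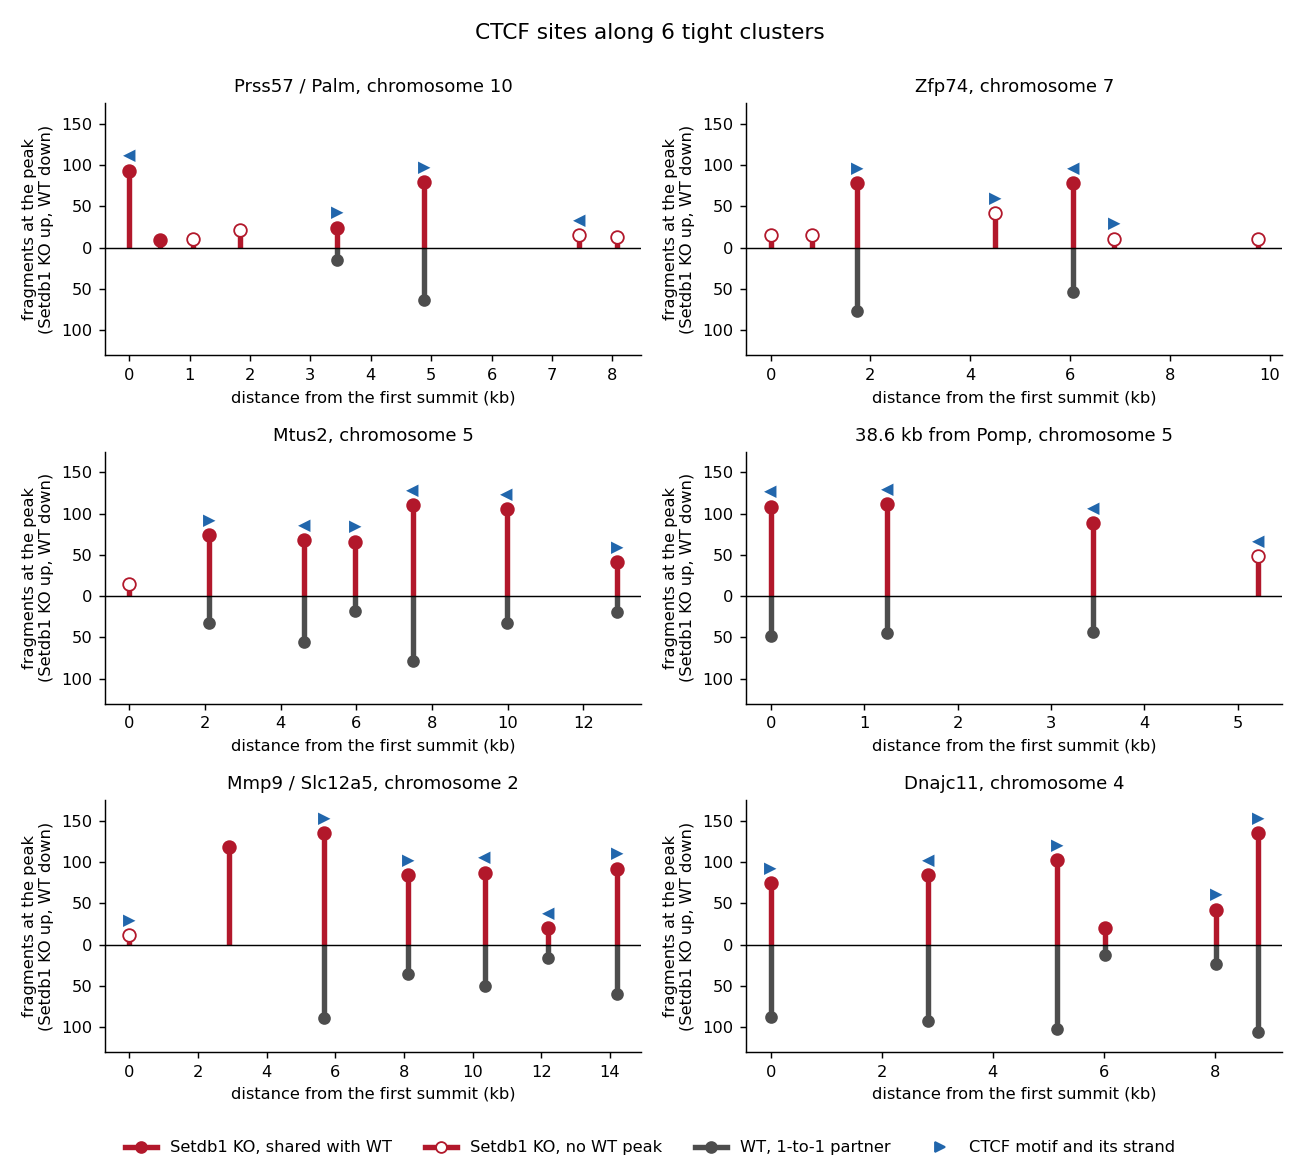
Pileup in fragments at each site (y axis, *Setdb1* KO up in red, WT down in grey) by distance from the first summit in kb (x axis) for 6 clusters. Open circles are KO-only sites and triangles give the strand of a CTCF motif. A shared site with no grey bar overlapped a WT peak that had no 1-to-1 partner. The open circles are mostly low, with 11 to 42 fragments in the *Prss57*, *Zfp74*, *Mtus2* and *Mmp9* clusters, while the KO-only site near *Pomp* has 48.

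After *Zfp74*, 8 clusters had 4 KO-only sites each. They lay at *Prss57*, beside *Bptf* and *Pafah2*, at *Fbxo46* and *Tacc1*, and near *Gatad2a*, *Cfdp1* and *Wdr20*. In 2 clusters every site was KO-only. The cluster 3.03 kb from *Cfdp1* had 23, 28, 17 and 22 fragments in *Setdb1* KO (chr8:111763228-111765463), and that 3.90 kb from *Wdr20* had 13, 27, 17 and 18 (chr12:110731191-110734041). In both, 3 of the 4 sites lay in masked sequence. All 8 pileups were low beside the median of 68.0 at shared sites of clusters. *Tacc1*, a gene of the centrosome, had KO-only sites of 30, 23, 36 and 19 fragments and a shared site of 61 in *Setdb1* KO against 65 in WT (chr8:25239236-25245820). Near *Gatad2a*, a gene of the NuRD complex, the shared site had 37 fragments in *Setdb1* KO against 30 in WT, and the KO-only sites had 17, 18, 27 and 15 (chr8:70000771-70005185).

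The 2 KO-only sites of clusters with the highest enrichment were chosen after their values were seen. The first lay 13.2 kb from *Lnx2*, which encodes a ubiquitin ligase, with 72 fragments and a fold enrichment of 15.0 over background. The second lay 38.6 kb from *Pomp*, the proteasome maturation gene, with 48 fragments and a fold enrichment of 14.5. Both were on distal chromosome 5, both were masked, and both carried a motif close to those of *Maneal* and *Pole2*. The 12-letter word itself is in the *Lnx2* motif and not in that near *Pomp*.
*Lnx2* site 4, motif at chr5:147003488-147003503: cacggagGCCAGAAGAGGGCATCagactcc
*Pomp* site 4, motif at chr5:147821865-147821880: cacagagACCAGAAGAGGGTGTCagatccc

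At shared sites, pileups were higher in *Setdb1* KO across the genome. Sites where 1 *Setdb1* KO peak and 1 WT peak overlapped each other and no other were compared by the ratio of *Setdb1* KO to WT fragments. Over 40937 such autosomal sites the median ratio was 1.36, so ratios in clusters are read against 1.36 and not against 1. A library with a higher share of its fragments in peaks and a gain of binding at most sites cannot be told apart here. Summed over the 922 such sites of the clusters, there were 62351 *Setdb1* KO fragments against 45527 WT fragments, which gives 1.37 (exact interval 1.35 to 1.39), with a median of 1.35 and quartiles of 1.17 and 1.58. A ratio of at least 2 was found at 90 sites (9.76%), against 9.44% of the autosomal sites. A ratio under 1 was found at 62 sites (6.72%), against 7.32%. The clusters were therefore close to the whole list on each of these measures.

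Single sites carry wide counting intervals, so clusters were compared by their sums. Summed over its sites, a cluster had a median ratio of 1.34, over the 284 clusters with at least 2 compared sites, and 283 of these sums were higher in *Setdb1* KO. The exception was at *Slco3a1*, with 82 fragments in each. Ratios under 1 were uncommon in the whole list too, at 7.32% of autosomal sites, so this count is not particular to the clusters. The interval lay above 1.36 in 24 clusters and under 1.36 in 11, and in no cluster under 1.

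**Figure D4:**
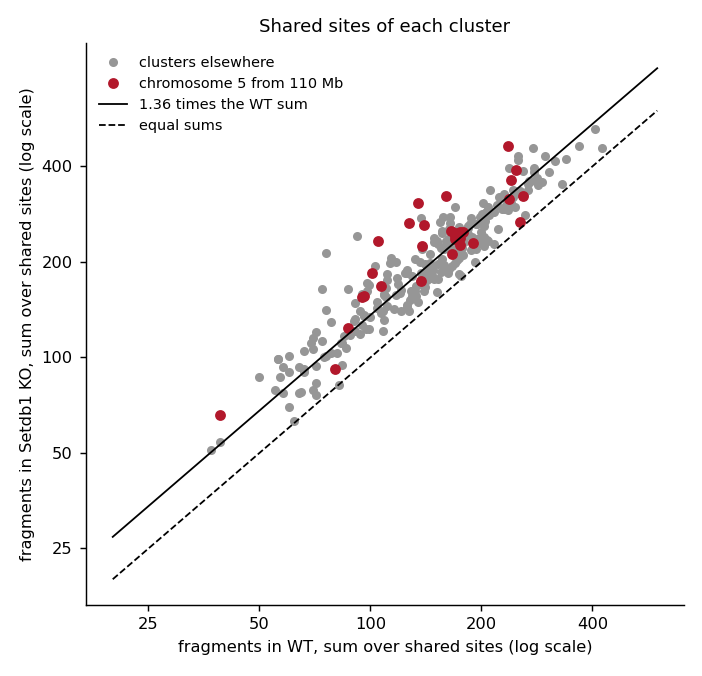
Summed pileup over the shared 1-to-1 sites of each of 284 clusters in *Setdb1* KO (y axis, fragments, log scale) and WT (x axis, fragments, log scale). The solid line is the genome-wide median ratio of 1.36 and the dashed line equality. Clusters on chromosome 5 from 110 Mb, in red, include several of the points farthest above the solid line, among them *Mtus2* with 464 fragments in *Setdb1* KO against 236 in WT.

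The highest ratios among clusters with at least 4 compared sites were at *B3glct*, *Mtus2*, *Caln1*, near *Terf2ip* and at *Mmp9*. *B3glct*, a glucosyltransferase gene, had 80, 71, 79 and 93 fragments in *Setdb1* KO against 19, 36, 51 and 54 in WT (chr5:149706423-149713349). Summed, the ratio was 2.02 (1.67 to 2.46), and the difference was largest at the first site. *Mtus2* had 74, 68, 66, 110, 105 and 41 fragments in *Setdb1* KO against 32, 56, 18, 79, 32 and 19 in WT, and a first KO-only site of 15 (chr5:148234703-148247592). Of these 6 sites, the 3 masked ones had ratios of 3.67, 3.28 and 2.16, and the 3 unmasked ones 2.31, 1.21 and 1.39. The masked sites carried the word given above, and the unmasked ones did not.
*Mtus2* site 4, masked, ratio 3.67: ctccactGCCAGAAGAGGGCATCagatccc
*Mtus2* site 6, masked, ratio 3.28: catggagGCCAGAAGAGGGCGCTagattcc
*Mtus2* site 7, masked, ratio 2.16: tgaggaaGCCAGAAGAGGGCGTCagattcc
*Mtus2* site 3, unmasked, ratio 1.21: tgaacttACCACCAGAGGGTGATacagggt
*Mtus2* site 5, unmasked, ratio 1.39: gacagtgCCCACTAGGTGGTGCCgttgctg

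*Caln1*, a calcium-binding protein gene, had 68, 65, 39 and 90 fragments in *Setdb1* KO against 18, 48, 25 and 49 in WT (chr5:130808975-130813288). Here the highest site ratio, 3.78 (2.22 to 6.75), was at an unmasked site. The cluster 24.8 kb from *Terf2ip*, a gene of the telomere-binding shelterin complex, had 101, 126, 133 and 71 fragments in *Setdb1* KO against 54, 81, 64 and 53 in WT (chr8:112045350-112051774). Sites 1 and 4 of its 5 were masked and had ratios of 1.87 and 2.08, above 1.56 and 1.34 at the unmasked sites. The 4 sites near *Pomp*, of which 3 could be compared, had 108, 111 and 88 fragments in *Setdb1* KO against 48, 44 and 43 in WT, a summed ratio of 2.27 (1.85 to 2.81), with all 4 motifs on the minus strand.

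The clusters with the largest summed ratios over fewer sites were at *Spats1* and *Cgnl1*, and were chosen after their values were seen. *Spats1*, a gene expressed in the testis, had 127, 50 and 36 fragments in *Setdb1* KO against 33, 24 and 19 in WT, a ratio of 2.80 (2.15 to 3.69), and these 3 of its 4 sites were masked (chr17:45466934-45470578). *Cgnl1*, a gene of cell junctions, had 64, 102 and 75 fragments in *Setdb1* KO against 31, 17 and 44 in WT, a ratio of 2.62 (2.05 to 3.37), at the 3 shared of its 5 sites (chr9:71642469-71646272). Summit 3 of *Cgnl1* had the highest ratio of any site in a cluster, 6.00 (3.57 to 10.7), and the first site of *Spats1* reached 3.85 (2.61 to 5.83). Both lay in masked introns and carried the word.
*Cgnl1* site 3, motif at chr9:71643790-71643805: agcagagGCCAGAAGAGGGCGCTcattgga
*Spats1* site 1, motif at chr17:45466906-45466921: catggagGCCAGAAGAGGGCGACagatccc

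The lowest ratios among clusters with at least 4 compared sites were at *Piwil1*, *Espn*, *Dnajc11*, *Rtn2* and *Ltbp1*. *Piwil1* had 39, 71, 94 and 63 fragments in *Setdb1* KO against 52, 62, 83 and 57 in WT, a ratio of 1.05 (0.882 to 1.25). *Espn*, which encodes an actin-bundling protein of hair cells, had 118, 80, 100 and 53 fragments in *Setdb1* KO against 112, 83, 69 and 68 in WT (chr4:152134723-152140663). The interval of every site of *Piwil1* held 1, as did those of the *Espn* sites with fewer fragments in *Setdb1* KO than in WT. *Dnajc11*, a gene of a mitochondrial J-domain protein, had 74, 84, 102, 20, 42 and 135 fragments in *Setdb1* KO against 88, 92, 102, 13, 23 and 106 in WT (chr4:151972785-151981559). *Rtn2*, a reticulon gene, had 109, 61, 36 and 76 fragments in *Setdb1* KO against 100, 57, 28 and 77 in WT (chr7:19296069-19300846), with no motif at any of its 4 sites. *Ltbp1*, whose product binds latent TGF-β, had 16, 108, 74 and 27 fragments in *Setdb1* KO against 18, 89, 79 and 17 in WT (chr17:75369587-75373345). The upper limits of the intervals at *Piwil1*, *Espn*, *Dnajc11*, *Rtn2* and *Ltbp1* lay between 1.23 and 1.35, under 1.36. These clusters were picked for their low ratios, which favours such limits. Of the 22 sites of these 5 clusters, 2 were masked.

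Repeat-masked sites were somewhat more frequent in clusters than at single summits. A summit was masked where more than 50% of the bases within 50 bp were marked as repeats in the mm10 genome. This was so at 452 of 1353 sites (33.4%, Wilson interval 30.9 to 36.0%), against 29.4% of single summits (29.0 to 29.8%) and 31.3% of summits in chains of 3 (29.7 to 33.0%), whose interval overlaps that of the clusters. With a gap of 2 kb in place of 3 kb the clusters had 29.2%, so the excess over single summits was not kept. Masked sites were KO-only in 37.2% (32.8 to 41.7%) and unmasked sites in 22.8% (20.1 to 25.6%). Over all autosomal peaks these shares were 40.1 and 23.6%, so the clusters were close to the whole list. Within the lowest class by pileup the shares of clustered sites were 83.4 and 72.6%, with overlapping intervals. Within the middle class they were 19.3 and 5.38%, with intervals that did not overlap. At compared sites, the summed ratio was 1.56 (1.52 to 1.60) over 272 masked sites and 1.31 (1.29 to 1.33) over 650 unmasked ones. Without chromosome 5 from 110 Mb, the masked sites had a ratio of 1.52. A ratio of at least 2 was found at 60 masked sites (22.1%) and at 30 unmasked ones (4.62%). The whole autosomal list had the same order, with summed ratios of 1.55 and 1.33 and shares of 21.1 and 5.62%.

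Sites with the 12-letter word, most of them masked, showed the same order. At the 177 compared sites with the word, 11959 *Setdb1* KO fragments stood against 7436 WT fragments, which gives 1.61 (1.56 to 1.66). The 513 compared sites that had a motif without the word had a ratio of 1.33 (1.31 to 1.35). The ratio reached 2 at 25.4% of the sites with the word and at 6.04% of those with a motif without it. KO-only sites made up 27.3% of the sites with the word, 8.80% of those with another motif and 27.6% of all sites without the word, many of which had no motif. The median pileup was 51 at sites with the word and 75.5 at sites with another motif. In the whole list the word went with a ratio of 1.58 and other motifs with 1.36, and KO-only shares were 34.8 and 14.5%. Reads that mapped to more than 1 place were dropped by the authors, so only copies of repeats with enough differences from other copies could give a peak.

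**Figure D5:**
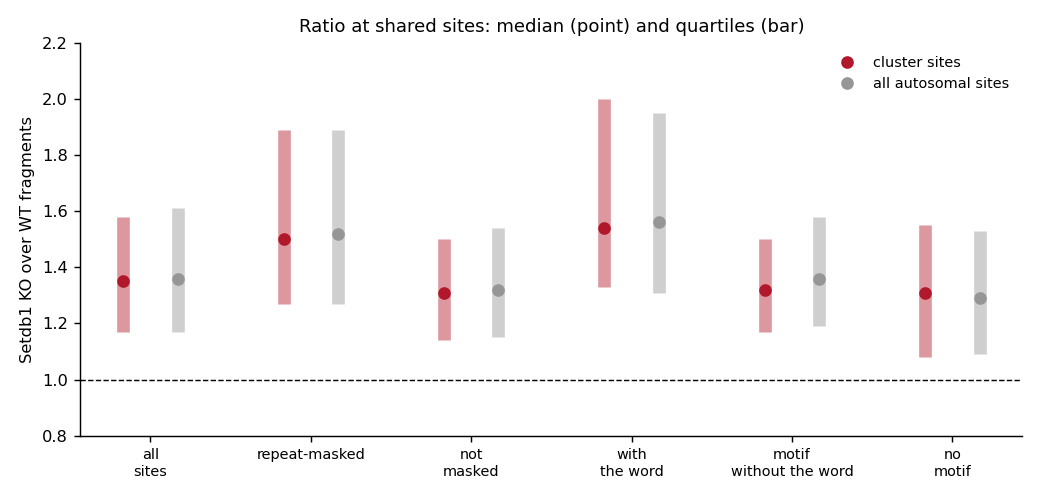
Ratio of *Setdb1* KO to WT fragments at shared 1-to-1 sites (y axis), by kind of site (x axis), for sites of clusters in red and all autosomal sites in grey. Points are medians and bars run between the quartiles; the dashed line is a ratio of 1. Masked sites and sites with the word CCAGAAGAGGGC have medians of 1.50 and 1.54 in clusters, above 1.31 at unmasked sites and 1.32 at sites with another motif.

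Some clusters held sites whose sequences aligned with each other. Pairs of sites from different clusters were not counted, so the share of aligned pairs has no reference value. The 301 bp around each summit were aligned between all 2356 pairs of sites within clusters, and 86 pairs (3.65%) aligned over at least 100 bp, with identities of 68.7 to 98.4% and a median of 82.8%. They involved 132 sites in 58 clusters, and in 78 of the 86 pairs both sites were masked. The pairs ran in the same direction in 46 cases and in opposite directions in the other 40. Of the 132 sites, 64 were KO-only (48.5%, Wilson interval 40.1 to 56.9%), against 25.3% (22.9 to 27.8%) of the sites with no such partner. Aligned sites lie together in 58 clusters, so these intervals, which treat sites as independent, are too narrow. The aligned sites were also lower, with a median of 27.5 fragments against 50. In the lowest class by pileup the KO-only shares were 87.3 and 75%, with overlapping intervals. Sites that are near-identical share reads that cannot be placed, which can lower their pileup in either library. With a median identity of 82.8%, most aligned pairs were not near-identical. The part of such unplaced reads in the low pileups and in the KO-only share was not tested.

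*Cnot1*, the scaffold gene of the CCR4-NOT deadenylase, had a cluster in which all 6 pairs of its 4 sites aligned, at 77.6 to 87.8% identity (chr8:95790504-95795794). The sites had 23, 28 and 32 fragments in *Setdb1* KO against 24, 22 and 25 in WT, and the KO-only site had 25. All 4 sites were low beside the median of 68.0 at shared sites of clusters. Its 3 motifs held the word or a close form of it, with the letters gacac to the left, and are shown to compare shared and KO-only sites.
*Cnot1* site 1, shared: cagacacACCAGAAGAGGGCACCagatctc
*Cnot1* site 2, shared: ctgacacACCAGAAGAGGGCATCagacctc
*Cnot1* site 3, KO-only: cagacacTCCAGAAGAGGGAGACagatctc

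*Kif13a*, a kinesin gene, had a cluster in which the 4 masked sites alternated in strand and were all shared (chr13:46830005-46835006). They had 72, 45, 100 and 58 fragments in *Setdb1* KO against 46, 15, 85 and 42 in WT, and the second site had a ratio of 3.00 (1.64 to 5.79). *Pole2* had 53 and 40 fragments in *Setdb1* KO against 35 and 23 in WT at its outer sites, and its inner sites, of 25 and 26 fragments, were KO-only. *Maneal* had 43, 76 and 100 fragments in *Setdb1* KO against 34, 50 and 79 in WT, and a KO-only site of 14 that had no motif.

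The other clusters with the most alike motifs were in *Nxn*, near *Katnal1* and near *Pomp*. In *Nxn*, a thioredoxin family gene, the shared sites had 79, 24 and 52 fragments in *Setdb1* KO against 57, 16 and 37 in WT (chr11:76386290-76392705). Its KO-only sites had 12 and 17 fragments, and their motifs had the same 16 bases on opposite strands. The cluster 115 kb from *Katnal1*, a katanin-like gene of microtubule severing, had 39, 54 and 75 fragments in *Setdb1* KO against 26, 27 and 54 in WT, and KO-only sites of 36 and 13 (chr5:148751043-148756423). In 10 of the clusters, 2 motifs had the same 16 bases.

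Strands of neighbouring motifs were mixed. Of 415 pairs of neighbouring sites that both held a motif, 218 lay on the same strand (52.5%, Wilson interval 47.7 to 57.3%), 94 pointed towards each other (22.7%, 18.9 to 26.9%) and 103 pointed apart (24.8%, 20.9 to 29.2%). In chains of 3, the shares were 52.7, 20.4 and 26.9%, and in chains of 2, 54.2, 20.1 and 25.7%. The intervals of each share overlapped between the classes. Of the 177 clusters with at least 3 motifs, 48 had all motifs on the same strand, as at *Pole2* and *Pomp*. This count was made for clusters alone, so it has no reference value and is not read as many or few. A motif was present at every summit in 52 clusters and at none in 7.

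Clusters were also set against lists of genes, counting those within 10 kb. No cluster lay near a Hox gene, a histone gene, a gene of CTCF and cohesin or a gene of H3K9 methylation and HP1, which have 0.0551, 0.0413, 0.0844 and 0.110% of autosomal *Setdb1* KO peaks near them. Developmental transcription factor genes had 7 clusters (2.26% of clusters, against 0.737% of autosomal *Setdb1* KO peaks near such a gene). The clusters at *Gli1* and *Inhbe*, neighbours on chromosome 10, are both counted for *Gli1*. Zfp genes had 5 (1.61 against 1.19%), genes of the cadherin list 4 (1.29 against 0.556%), of which 1 is near *Dscaml1*, which is not a cadherin gene, and imprinted genes, pluripotency genes and olfactory receptors 1 each (0.323% of clusters, against 0.281, 0.117 and 0.406% of peaks). A cluster spans several kb and so has more chance than a peak to come near a gene.

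Near *Hand1*, a transcription factor gene of heart and placenta, the shared sites had 65, 96 and 62 fragments in *Setdb1* KO against 31, 74 and 34 in WT, with KO-only sites of 27 and 18 (chr11:57818372-57825462). Its 3 motifs were on the plus strand. At *Foxn1*, needed for the thymic epithelium, the shared sites had 110, 132 and 53 fragments in *Setdb1* KO against 91, 110 and 30 in WT, and the KO-only site had 11 (chr11:78355682-78360691). At *Inhbe*, within 10 kb of *Gli1*, a transcription factor gene of Hedgehog signalling, the shared sites had 77, 82 and 18 fragments in *Setdb1* KO against 59, 76 and 18 in WT (chr10:127349207-127354122). None of the 4 sites at *Foxn1* lay in masked sequence.

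The cluster in *Atp9a*, within 10 kb of the pluripotency gene *Sall4*, had 63, 20, 89 and 58 fragments in *Setdb1* KO against 41, 20, 74 and 32 in WT and a KO-only site of 13 (chr2:168739036-168744560). *Asb4*, an imprinted gene of a ubiquitin ligase adaptor, had 38, 34, 57 and 33 fragments in *Setdb1* KO against 25, 16, 40 and 17 in WT, a ratio of 1.65 (1.28 to 2.15), with no KO-only and no masked site (chr6:5396910-5403252). *Cdh13*, which encodes T-cadherin, had 72, 67 and 137 fragments in *Setdb1* KO against 29, 55 and 53 in WT, a ratio of 2.01 (1.64 to 2.49), at 3 of its 4 sites (chr8:119295747-119300559). At *Cdhr2*, a protocadherin gene of the intestinal brush border, the first site had 74 fragments in *Setdb1* KO against 40 in WT (chr13:54714578-54717678). The 3 sites of *Cdh13* had ratios of 2.48, 1.22 and 2.58, so that the middle one stayed near the genome-wide median.

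Of the clusters near a Zfp gene, that at *Gpr84* and *Zfp385a* had 119, 78 and 152 fragments at its shared sites in *Setdb1* KO against 91, 69 and 125 in WT, and KO-only sites of 19 and 15 (chr15:103307323-103315177). That at *Prpf6*, a splicing factor gene, and *Samd10* had 1 shared site, of 74 fragments in *Setdb1* KO against 56 in WT, beside KO-only sites of 20, 31 and 16 (chr2:181595099-181599340). Neither cluster held more than 1 masked site. The only cluster near an olfactory receptor gene, *Olfr279*, had 102 and 73 fragments in *Setdb1* KO against 88 and 54 in WT, with KO-only sites of 32 and 19 between them (chr15:98504690-98510687). The cluster near *Fxyd2*, which encodes a regulator of the sodium pump, and *Dscaml1* had 80, 95, 81, 81 and 85 fragments in *Setdb1* KO against 61, 78, 52, 72 and 77 in WT, and a KO-only site of 13 (chr9:45412509-45421427). Here all 5 shared sites were higher in *Setdb1* KO, and the summed ratio of 1.24 (1.07 to 1.44) was under the genome-wide median with an interval that held it.

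A few more clusters were chosen after their values were seen, to show how shared and KO-only sites were arranged. *Evi5*, a gene of a regulator of the cell cycle, had 30, 55 and 51 fragments in *Setdb1* KO against 17, 47 and 32 in WT, and a KO-only site of 21 that was masked and held the 12-letter word, as sites 1 and 3 did (chr5:107857414-107862080). *Rcc1*, the exchange factor gene of the RAN GTPase, began with an unmasked promoter site of 118 fragments in *Setdb1* KO against 99 in WT (chr4:132345774-132349734). It was followed by 3 masked sites that aligned with each other, of which the first had 22 fragments in each library and the others, of 17 and 26, were KO-only. The cluster near *Trcg1* had a single shared site, unmasked, of 68 fragments in *Setdb1* KO against 44 in WT, among masked KO-only sites of 11, 21 and 29 (chr9:57206288-57211104). In *Rcc1* and near *Trcg1*, the highest site was thus the unmasked one.

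Distal chromosome 5 held 32 of the 310 clusters, from 110 Mb to the end. Their 103 compared sites had a ratio of 1.52 (1.47 to 1.58), against 1.35 (1.33 to 1.37) in clusters elsewhere, and 24.3% of these sites had a ratio of at least 2, against 7.94%. All peaks of that region, clustered or not, had a summed ratio of 1.46 (1.45 to 1.47), and 17.6% of the compared sites reached 2. The KO-only share there was 22.1% of clustered sites (16.1 to 29.7%), under the 26.6% of all peaks of the region, with overlapping intervals. Of the 140 clustered sites of the region, 39.3% were masked (31.6 to 47.6%), against 32.7% of clustered sites elsewhere (30.1 to 35.4%) and 41.8% of all peaks of the region. The boundary of 110 Mb was chosen after values were seen.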

How the data were processed

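CTCF ChIP-seq peak lists of *Setdb1* KO and WT ESCs were used, 1 library per condition; the second libraries and the other assays were not analysed here. Per the methods and the submitters' processing notes, reads were aligned to mm10 (GRCm38) with Bowtie 1.2, keeping reads that mapped to 1 place, duplicates were removed with Picard, and peaks were called per library with MACS2 2.1.0. Fold enrichment, as deposited, is the pileup plus 1 over the background plus 1 at the summit. The authors' p and q are deposited as −log10 values, and the deposited score is −log10 q multiplied by 10.

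The pileup and background of each peak were solved from the deposited fold enrichment and −log10 p (100% of peaks, tolerance 0.001). From the lowest background, depth was 27.6 M tags in *Setdb1* KO and 27.4 M in WT, and it sets the counting error given by Wilson intervals of shares and exact Clopper-Pearson intervals of ratios. Neither covers the spread between cultures. No test between conditions was made.

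The motif matrix (16 bp) came from 895 of the 1000 strongest shared *Setdb1* KO peaks outside clusters. A motif scored at least 10.2, the 99th percentile of 53774 windows 1 kb left of summits. Sites were aligned over at least 100 bp at an E-value up to 1e-10 (BLASTN 2.17.0). Masked bases and sequences are from RefSeq GRCm38.p6 and genes from GENCODE vM21. Other steps ran in Python 3.11.15 with pandas 2.3.3, numpy 2.4.6, scipy 1.17.1 and matplotlib 3.10.9, and the steps were tested on simulated data.

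Clusters were named by rule: the 12 with the most summits (ties to the shorter span), the 6 with the most KO-only sites (ties to the higher summed pileup of those sites), the 5 highest and 5 lowest ratios over at least 4 shared sites, the 5 with the most alike motifs, up to 3 per gene list and the 3 nearest to each side of the gap limit. *Kif13a*, *Cnot1*, *Spats1*, *Cgnl1*, *Evi5*, *Rcc1*, *Trcg1* and the site near *Lnx2* were added after their values were seen, and examples from the gene lists are a choice among those the rule allows. The members, lists and rule were chosen with earlier results of these data known. The alternatives varied the gap, the number of summits, the list chained, peak thresholds, the overlap that counts as shared, and the motif and masking thresholds.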

Additional observations from a re-analysis of the deposited data

How the results depend on the processing

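The number of clusters followed the rule and the peak threshold. It was 126 with a gap of 2 kb, 841 with 5 kb, 80 with at least 5 summits, 145 in the WT list, 189 at −log10 q of at least 5, 138 at a fold enrichment of at least 5 and 113 with as many top *Setdb1* KO peaks as in the WT list. Their peaks numbered 538, 3846, 433, 623, 811, 581 and 472 in the same order. The KO-only share was 21.5% at −log10 q of at least 5, 20.3% at a fold enrichment of at least 5 and 7.20% in the top peaks. It was 36.9% where 50% of both peaks had to overlap and 30.8% where summits had to lie within 100 bp. Where no WT peak lay within 1 kb, it was 14.6%. These KO-only shares were taken for clusters alone, not for the whole list at the same settings, so none can be set against its 28.5%. A clustered peak has a neighbour within 3 kb, which can lower the share in the 1 kb setting. In the WT list, chained alike, 6.42% of clustered peaks lacked a *Setdb1* KO partner. The summed ratio was 1.35 in clusters of the WT list, 1.39 in the top peaks, 1.35 as the median of single sites and 1.35 without chromosome 5 from 110 Mb. The motif share was 56.9% with a gap of 2 kb, 69.0% in the WT list, 69.8, 74.2 and 78.2% with the stricter peak thresholds in the order above, 74.6% at percentile 95 of the control scores, 36.1% at a stricter percentile that 1 in 1000 control windows passed, and 58.6% in a window of 100 bp. At that stricter percentile, 57.6% of neighbouring motifs lay on the same strand. The masked share was 29.2% with a gap of 2 kb, 36.7% with at least 5 summits, 26.0% in the WT list, 30.3% at a fold enrichment of at least 5, 29.9% in the top peaks and 56.8% counting any masked base. The ratio at masked sites was 1.52 without chromosome 5 from 110 Mb, and 1.57 at those with a motif. These 2 and the omission of chromosome 5 from the ratio of all sites were chosen after seeing the data. Of 76 alternatives, 35 moved their value by less than its counting interval, or a count by less than 1.5 times. The causes of the other changes were not tested.

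Counting error is all that the intervals hold, so a difference between cultures or library preparations cannot be told apart from loss of *Setdb1*. No paired analysis was possible because 1 library per condition had a peak list among the files used here.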

Other observations

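On the X chromosome, which was left out of the clusters, the same rule gave 4 chains with 18 of 1567 *Setdb1* KO peaks (1.15%). Both of the first 2 lay in *Firre*, which encodes a long noncoding RNA that binds chromatin at its own locus, with 5 summits each, of which 3 were KO-only. Their shared sites held 40 fragments in *Setdb1* KO against 30 in WT (ratio 1.33, exact interval 0.810 to 2.22) and 36 in *Setdb1* KO against 45 in WT (interval of the ratio 0.501 to 1.27). A motif was called at 1 of these 10 summits. A chain 80108 bp from *4931400O07Rik* had 4 summits, all KO-only and without a motif. The chain in *F8*, the gene of coagulation factor VIII, had 83 fragments in *Setdb1* KO against 52 in WT at 3 shared sites (1.60, 1.12 to 2.30). The median ratio over 911 shared sites of the X chromosome was 1.33.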
